A study of Homo sapiens with 18 samples.

Results

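The basal and luminal keratins described here are KRT5, KRT14, KRT17, KRT6A, KRT6B, KRT7, KRT8, KRT18, KRT19 and KRT81. They were chosen by gene symbol, and their 10 genes were read by 13 probes among the 19289 genes and 21111 probes of the panel. KRT7, KRT19 and KRT81 had a pair of probes each, and every other member had 1. Another 45 keratin genes, read by 46 probes, were on the panel as well.

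The study asked which genes change when ASAP1, an Arf GTPase-activating protein, is depleted from triple-negative breast cancer (TNBC) cells. BT549 and Hs578T, which the study calls mesenchymal-like, and SUM149PT, which it calls basal-like, are established human TNBC cell lines. Each line was transfected with 50 nM siASAP1, a pool of siRNAs against ASAP1, or with 50 nM siCtrl, a pool of kinase siRNAs, and lysed 72 h later, with 3 libraries for each line and treatment and 18 in all. All the cells therefore received siRNA and the transfection reagent INTERFERin, and no untransfected cells were measured. RNA was read by TempO-Seq, in which a pair of detector oligonucleotides that anneal side by side on an RNA is ligated, amplified and counted by sequencing, so that each probe reports 1 short stretch of a transcript. Levels are given as normalized counts, which are reads of a probe scaled by a size factor of its library. A level can be compared between libraries for the same probe, but not between probes, because probes capture their targets with different efficiency.

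Keratins are the intermediate filament proteins of epithelial cells. A filament is built from pairs of a type I and a type II keratin, so that a cell needs a member of each type. In the breast, KRT5, KRT14 and KRT17 mark the basal layer of the ducts, while KRT8, KRT18, KRT19 and KRT7 mark the luminal cells that line the lumen and belong to the keratins of simple epithelia. KRT6A and KRT6B are induced in stressed, wounded or proliferating epithelium, and KRT81 is a keratin of the hair cortex that is also known from breast carcinoma. Breast tumors with basal keratins are named basal-like, and the loss of keratins together with a gain of vimentin is a usual sign of a mesenchymal state. In a lysate of a whole culture, fewer keratin-positive cells and less keratin RNA per cell cannot be told apart.

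In the GRCh38 assembly with the GENCODE 29 annotation, the keratin genes form a pair of clusters. The cluster on chromosome 12, chr12:52168996-52952901, holds 27 keratin genes over 0.784 Mb, and 7 of the members lie in it. They are the type II genes KRT81, KRT7, KRT6B, KRT6A, KRT5 and KRT8 and, at its end next to KRT8, the type I gene KRT18. The cluster on chromosome 17, chr17:40654665-41624842, holds 28 keratin genes over 0.970 Mb and the type I members KRT19, KRT14 and KRT17. Probe sequences were not used here, and which exon or UTR a member probe reads was not determined.

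Several members have near-identical neighbors in these clusters, and reads of such copies can be shared between probes. KRT6A and KRT6B were 97.5% identical over 1692 coding bases, and KRT6A and KRT6C were 97.9% identical. Of all windows of 50 bases in the coding sequence of KRT6B, 62.6% were also found in a transcript of another gene, against 52.8% for KRT6A, 0.516% for KRT7 and 2.09% for KRT19. The share was 57.2% for KRT81, 24.6% for KRT14, 17.2% for KRT17 and 5.75% for KRT5. For KRT8 the share was 45.6% and for KRT18 38.8%, and nearly all of the genes that shared those windows are pseudogenes by name. The coding stretch of 60 bases where KRT6A, KRT6B and KRT6C differ most shows how little separates them. Capitals mark the bases that are not the same in all 3 genes. The stretches lie in exon 2 of each gene on the minus strand, at chr12:52491555-52491614, chr12:52450439-52450498 and chr12:52472099-52472158 in that order.
KRT6A: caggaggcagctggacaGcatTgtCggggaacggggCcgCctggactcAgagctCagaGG
KRT6B: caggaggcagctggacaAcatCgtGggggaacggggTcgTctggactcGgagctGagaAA
KRT6C: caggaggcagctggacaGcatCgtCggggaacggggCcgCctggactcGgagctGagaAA
Even here KRT6A and KRT6B differed at 9 of 60 bases. KRT81 is closest to its hair keratin neighbor KRT86, with 94.2% identity and 49.2% of its 50-base windows present in KRT86, and 93.5% identical to KRT83. In the stretch where KRT83 stood farthest from KRT81, chr12:52289216-52289275 on the minus strand in KRT81, chr12:52304111-52304170 on the plus strand in KRT86 and chr12:52317911-52317970 on the minus strand in KRT83, KRT81 and KRT86 had 0 differences, while KRT83 had 11.
KRT81: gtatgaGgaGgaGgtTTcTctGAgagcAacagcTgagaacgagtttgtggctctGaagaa
KRT86: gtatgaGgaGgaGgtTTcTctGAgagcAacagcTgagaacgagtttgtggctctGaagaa
KRT83: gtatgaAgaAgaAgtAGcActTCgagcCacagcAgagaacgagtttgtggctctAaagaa
The basal type I keratins were easier to tell apart. KRT14 and KRT17 were 86.0% identical, and the chosen stretch of exon 1, on the minus strand at chr17:41586317-41586376 in KRT14 and chr17:41624085-41624144 in KRT17, differed at 23 of 60 bases. In KRT16, at chr17:41612165-41612224 on the same strand, that stretch differed from KRT14 at 4 bases.
KRT14: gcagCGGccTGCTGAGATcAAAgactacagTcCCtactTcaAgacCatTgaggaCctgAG
KRT16: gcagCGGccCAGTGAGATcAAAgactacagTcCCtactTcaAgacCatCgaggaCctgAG
KRT17: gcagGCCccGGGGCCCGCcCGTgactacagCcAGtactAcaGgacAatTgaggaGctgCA
The values of KRT6A, KRT6B, KRT81, KRT14, KRT17, KRT8 and KRT18 are therefore given as those of their probes. A part of the reads may come from the copies named here.

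The libraries held 4.63 to 12.5 M reads, with a median of 6.63 M. The ASAP1 probe, which checks the knockdown, had normalized counts of 282, 468 and 184 in SUM149PT siASAP1 libraries 1 to 3, and 1087, 189 and 1314 in the siCtrl libraries. The library labelled siCtrl 2 thus lay within the range of the siASAP1 libraries. Over the probes that were not members, the library labelled SUM149PT siCtrl 2 correlated with siASAP1 libraries 1 and 3 at r = 0.840 and 0.848, and with the other siCtrl libraries at 0.711 and 0.687. The library labelled SUM149PT siASAP1 2 correlated with siCtrl libraries 1 and 3 at 0.860 and 0.861, and with the other siASAP1 libraries at 0.784 and 0.758. In these correlations both libraries numbered 2 thus went against their labels. The ASAP1 value of siASAP1 2, 468, was the highest of its group but lay below those of siCtrl 1 and 3, 1087 and 1314. By ASAP1, only siCtrl 2 went against its label. The tests of the members in SUM149PT are given with and without both libraries. In BT549, siASAP1 library 1 had a mean r of 0.914 with the siCtrl libraries and 0.810 with its own group, although its ASAP1 value of 367 was the lowest of that line. In Hs578T, siASAP1 library 2 had a mean r of 0.924 with the other group and 0.914 with its own, and the 3 siCtrl libraries had 0.919, 0.90 and 0.882 with the other group and 0.910, 0.892 and 0.856 with their own. In BT549 and in Hs578T, the ASAP1 values of all 3 siASAP1 libraries were below those of every siCtrl library.

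SUM149PT expressed the keratins of both layers, and BT549 and Hs578T had little beyond KRT8 and KRT18. The members took 0.509% ± 0.257 (SD, n = 3) of all reads in SUM149PT after siASAP1 and 0.386% ± 0.175 (SD, n = 3) after siCtrl. In the groups of BT549 and Hs578T the mean share was between 0.00320% and 0.00358%. The plot of every member probe in the 18 libraries shows this gap on the log2 scale.

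**Figure D1:**
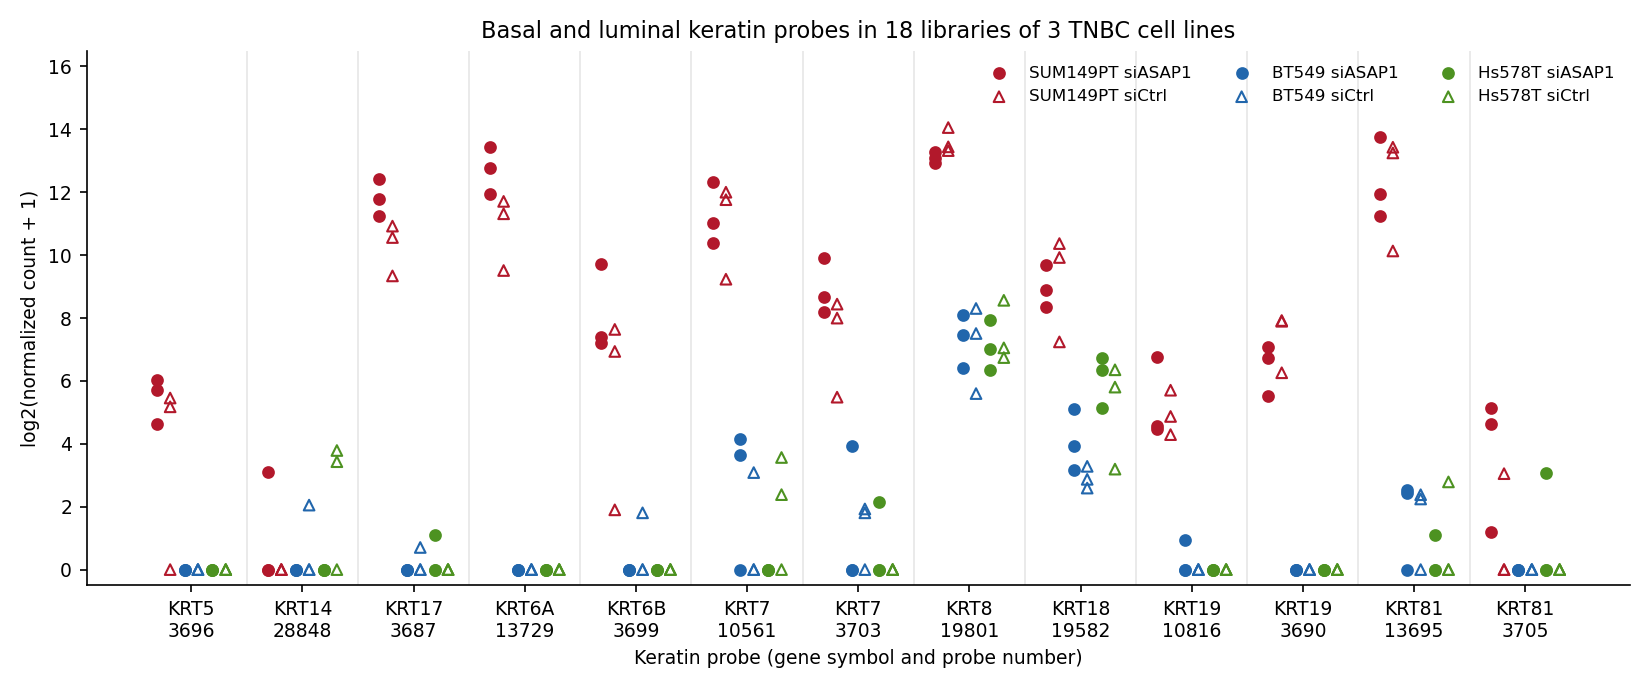
Levels of the 13 member probes in 18 TempO-Seq libraries. The vertical axis is log2(normalized count + 1), each point is a library, colors give the cell line, filled circles are siASAP1 and open triangles are siCtrl. KRT17, KRT6A and KRT81_13695 were high in SUM149PT and at or near 0 in the other lines, while KRT8 and KRT18 had reads in every library.

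Of the basal keratins, KRT17 was the one with many reads. Its normalized counts in SUM149PT were 2420, 5514 and 3521 after siASAP1 and 1509, 647 and 1941 after siCtrl. In BT549 and Hs578T a single read was counted in 1 siCtrl library of BT549 and in 1 siASAP1 library of Hs578T. KRT17 was thus present in all 6 SUM149PT libraries and nearly without reads elsewhere. KRT5, the type II keratin of basal cells, was far thinner. Its normalized counts in SUM149PT were 23.8, 64.1 and 51.2 after siASAP1 and 42.9, 0 and 35.2 after siCtrl, from 159 reads in all. In the 12 libraries of BT549 and Hs578T no read of KRT5 was counted. KRT14, the usual type I partner of KRT5, was not established in any line. It had 6 reads in 1 library of SUM149PT, 5 in 1 of BT549, and 12 and 13 in 2 siCtrl libraries of Hs578T, and 0 in the other libraries. SUM149PT at this depth therefore had reads of KRT5 without steady reads of KRT14, and KRT14 passed no filter on low counts and was not tested.

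The inducible keratins KRT6A and KRT6B were also seen in SUM149PT. The KRT6A probe had normalized counts of 3916, 11215 and 6929 after siASAP1 and 2547, 729 and 3347 after siCtrl. It had 0 reads in each of the 12 libraries of the other lines. The KRT6B probe had 148, 835 and 167 after siASAP1 and 122, 2.73 and 198 after siCtrl, where 2.73 was 3 reads. Its only other reads were 2 in 1 siCtrl library of BT549. KRT6C, the third gene of this group, had 0 reads in all 18 libraries.

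Among the luminal keratins, KRT8 and KRT18 were the members that every library contained. KRT8, the type II keratin of simple epithelia, ranged from 7746 to 17042 in the 6 SUM149PT libraries with a median of 10131. In BT549 the lowest, median and highest values were 47.4, 179 and 315, and in Hs578T 80.9, 130 and 377. BT549 and Hs578T overlapped for KRT8, and both stayed far under SUM149PT. KRT18, the type I partner of KRT8, had a median of 653 in SUM149PT, between 150 and 1320. Its median was 67.8 in Hs578T, between 8.16 and 104, and 8.37 in BT549, between 5.03 and 33.8. The order for KRT18 was SUM149PT, Hs578T, BT549, with overlap between the last pair.

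KRT7 and KRT19 were nearly confined to SUM149PT in these 18 libraries. KRT7, a type II keratin of luminal and glandular cells, was read by a pair of probes, and both showed this. Probe KRT7_10561 had a median of 2770 in SUM149PT, between 601 and 5107, and no more than 18 reads in any library of the other lines. Probe KRT7_3703 had a median of 320 in SUM149PT, between 43.7 and 953, and at most 15 reads elsewhere. KRT19, the type I keratin that lacks most of the tail domain, was read by a pair of probes as well. KRT19_3690 had 105, 135 and 44.7 after siASAP1 and 237, 75.6 and 241 after siCtrl in SUM149PT, and 0 reads in the other lines. KRT19_10816 had 22.5, 106 and 21.0 after siASAP1 and 18.6, 28.2 and 51.2 after siCtrl, with 1 read in 1 library of BT549 as its only read outside SUM149PT.

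The probes of KRT81 did not behave alike. KRT81_13695 had normalized counts of 2433, 13748 and 3917 after siASAP1 and 9741, 1122 and 11046 after siCtrl in SUM149PT, and at most 6 reads in a library of the other lines. KRT81_3705 had 34.4, 1.28 and 23.7 after siASAP1 and 0, 7.29 and 0 after siCtrl, and 7 reads in 1 library of Hs578T as its only reads elsewhere. In SUM149PT the library that was highest by KRT81_13695, siASAP1 2, was thus the lowest of its group by KRT81_3705. KRT86, the near-identical neighbor, followed KRT81_13695 closely, with 2418, 12162 and 4551 after siASAP1 and 8351, 815 and 9796 after siCtrl. KRT83 had 360, 2368 and 724 after siASAP1 and 1406, 147 and 1905 after siCtrl. These 3 hair keratin probes ranked the 6 libraries alike, and how far they read the same RNA was not tested.

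The difference between the cell lines was tested in the siCtrl libraries. By limma with an adjusted p under 0.05 over all probes, 10 of 10 tested member probes, from 8 genes, were higher in SUM149PT than in BT549, where 9.4% of all probes were higher and 8.8% lower. The same 10 probes were higher in SUM149PT than in Hs578T, where 9.68% of all probes were higher and 10.6% lower. The groups did not overlap for any of the 10 probes in either comparison, as for 32.8% of all probes against BT549 and 35.4% against Hs578T. The median Log2 FC of the members was 6.92 against BT549 and 7.33 against Hs578T, beside -0.04 and -0.00 over all probes. Both comparisons use the same 3 SUM149PT siCtrl libraries. A probe passed the filter, a mean normalized count of at least 10 over the 9 libraries, only through SUM149PT in most cases, so that a probe of this kind had to differ, and the counts are no measure of how special the members are. KRT8 is the member that passed in every line on its own, and it was higher by 6.47 (SE 0.69, adjusted p = 0.000115) on the log2 scale against BT549 and by 6.16 (SE 0.69, adjusted p = 0.000137) against Hs578T. As means, 12813 ± 3689 (SD, n = 3) in SUM149PT stood against 181 ± 134 in BT549 and 205 ± 150 in Hs578T.

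KRT18 was higher by 6.26 (SE 0.98, adjusted p = 0.00135) against BT549 and by 4.06 (SE 0.98, adjusted p = 0.0156) against Hs578T. For members without reads in the other line, the fold was bounded by the SUM149PT mean over 3 reads in that group. By its mean, KRT6A was at least 2809-fold higher in SUM149PT than in BT549 and at least 2521-fold higher than in Hs578T. KRT17 was at least 1559-fold higher than in Hs578T, and against the 1 read in BT549 the ratio was 4694 with a counting interval of 842 to 185475. KRT5, which was not tested among the siCtrl libraries, was by its mean at least 33.1-fold and 29.7-fold higher than in BT549 and Hs578T. The SUM149PT siCtrl 2 library had 0 reads of KRT5, so these bounds do not hold for each library. KRT19_3690 was at least 235-fold and at least 211-fold higher. Of the basal members, KRT14 was the exception, with 0 reads in the SUM149PT siCtrl libraries, 5 in those of BT549 and 25 in those of Hs578T. The interval of the ratio covers counting error alone, and the bounds cover only that of the other line. Neither covers the spread of the SUM149PT libraries, where KRT6A in siCtrl 2 was 729 beside a mean of 2208. PCR reads are also not independent molecules.

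**Figure D2:**
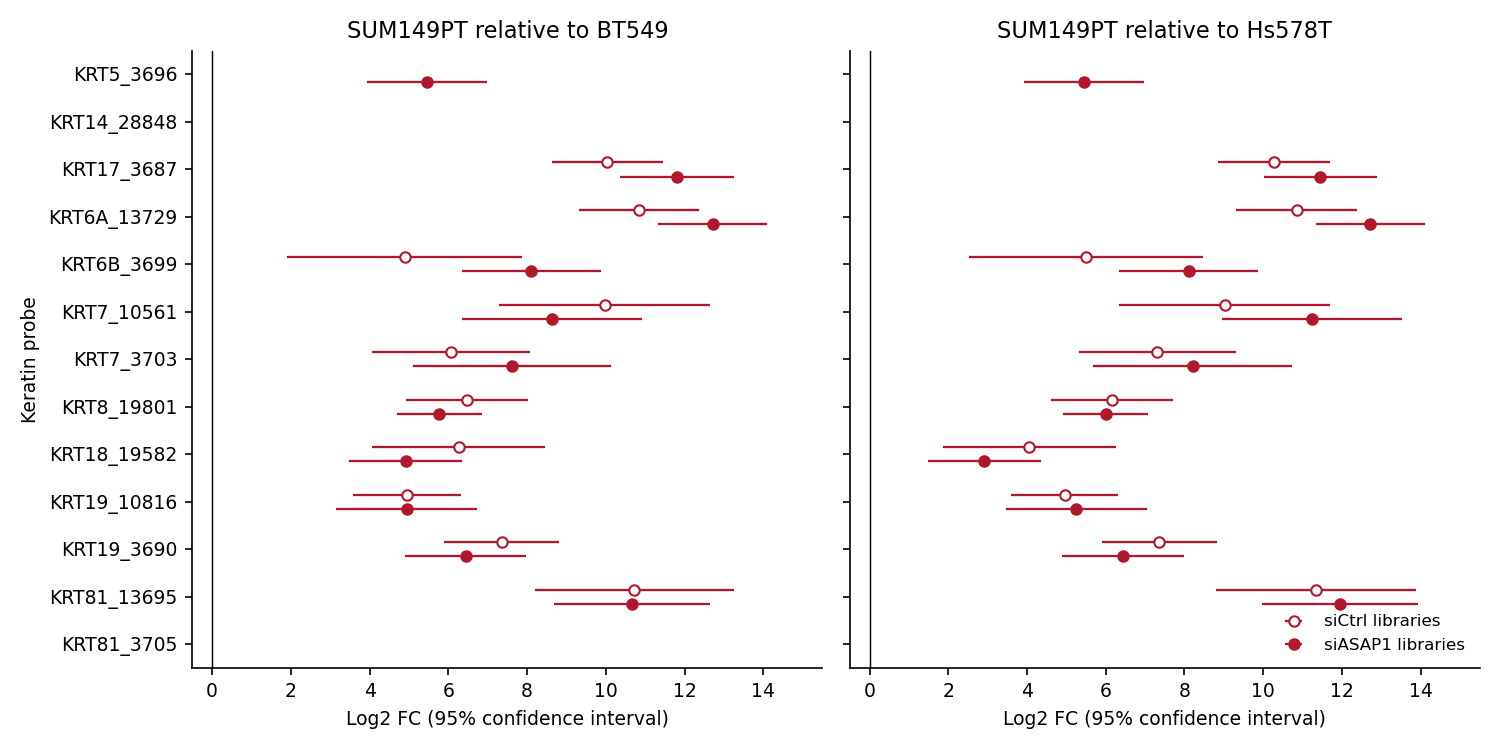
Log2 FC of each tested member probe in SUM149PT relative to BT549 (left) and Hs578T (right). Open circles are siCtrl libraries, filled circles are siASAP1 libraries, and bars are 95% confidence intervals of the limma fit. All tested probes lie above 0, from 2.92 for KRT18 against Hs578T after siASAP1 to 12.72 for KRT6A after siASAP1, and the size for probes at 0 reads in the other line depends on the added count of 1.

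The siASAP1 libraries, which the comparison above did not use, gave 11 of 11 tested member probes, from 9 genes, higher in SUM149PT than in BT549 (11.4% of all probes were higher and 10.8% lower) and 11 of 11 higher than in Hs578T (14.4% higher and 14% lower). All 11 were without overlap in both, as were 32.9% and 44.8% of all probes. KRT5 joined the tested members there and passed the filter through SUM149PT alone, as did most of the 11, which therefore had to differ. KRT8 was higher by 5.77 (SE 0.49, adjusted p = 1.82e-05) against BT549 and by 6.0 (SE 0.49, adjusted p = 1.19e-05) against Hs578T. With both SUM149PT libraries numbered 2 left out, 9 of 9 member probes that passed the filter were higher in each of the 4 comparisons. KRT19_10816 and, after siASAP1, KRT5 no longer passed it. Most of these 9 also passed through SUM149PT alone and had to differ, and the share of all probes was not computed for these fits. A single library could end the calls of KRT6B, KRT18 and KRT19_10816 among the siCtrl libraries. KRT19_10816 fell under the filter without any one of the 3 SUM149PT siCtrl libraries. Without SUM149PT siCtrl 1 the adjusted p of KRT6B was 0.111 against BT549 and 0.0613 against Hs578T, and that of KRT18 was 0.0636 against Hs578T. Without SUM149PT siCtrl 3 these were 0.103, 0.0547 and 0.0652. KRT6B also lost its call without BT549 siCtrl 2 or 3 (both 0.104) and without Hs578T siCtrl 1 (0.0555) or 2 (0.0551), and KRT18 without Hs578T siCtrl 2 (0.0556).

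Between BT549 and Hs578T no member probe passed the adjusted p. In the siCtrl libraries 0 of 10 were called, beside 6.28% of all probes higher and 7.58% lower in BT549. The member with the smallest p was KRT18. Its Log2 FC was -2.20 (SE 0.98, limma, unadjusted p = 0.0493, adjusted p = 0.191), with means of 6.69 ± 1.88 (SD, n = 3) in BT549 and 47.9 ± 36.8 in Hs578T. The groups overlapped for KRT18, as for every other member, while 36.7% of all probes did not overlap. In the siASAP1 libraries 0 of 11 were called, beside 9.2% of all probes higher and 10.7% lower in BT549. KRT18 and KRT7_10561 had the smallest p, 0.0108 and 0.0293 before adjustment (limma). KRT18 stood at -2.0 (SE 0.65, adjusted p = 0.0528), and its values of 8.0, 14.2 and 33.8 in BT549 did not overlap with 104, 34.1 and 81.0 in Hs578T, where 40% of all probes did not overlap. KRT7_10561 stood at 2.61 (SE 1.03, adjusted p = 0.105), from 11.6, 17.0 and 0 in BT549 and 0 in each library of Hs578T. KRT8 differed by -0.32 (95% CI -1.86 to 1.23) in the siCtrl libraries and by 0.22 (-0.85 to 1.30) in the siASAP1 libraries. KRT18 lay past the threshold without BT549 siASAP1 3 (adjusted p = 0.0303) or Hs578T siASAP1 2 (adjusted p = 0.0447), and without the former KRT7_10561 was higher in BT549 by 3.91 (adjusted p = 0.00565).

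The lists that belong with keratins in an epithelial cell were read beside them. Of the epithelial markers, 10 of 11 tested probes were higher in SUM149PT than in BT549 among the siCtrl libraries, and 11 of 11 were higher than in Hs578T, beside 9.4% and 9.68% of all probes. As with the members, a probe of these lists that passed the filter only through SUM149PT had to differ. Both counts were the same without the libraries numbered 2. EPCAM, an adhesion protein of epithelia, had mean normalized counts of 29532 in SUM149PT, 1.72 in BT549 and 19.0 in Hs578T. Of the mesenchymal markers, 15 of 18 probes were lower and 1 was higher in SUM149PT than in BT549, and 17 of 18 were lower than in Hs578T. Of all probes 8.8% and 10.6% were lower. VIM, the vimentin of mesenchymal intermediate filaments, had means of 2622 in SUM149PT, 32100 in BT549 and 151322 in Hs578T by its probe VIM_18185. SUM149PT thus had the most keratin and the least vimentin of the 3 lines.

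Desmosomes anchor keratin filaments to cell contacts, and 4 of 7 tested desmosome probes were higher in SUM149PT than in BT549 and 3 of 7 higher than in Hs578T. For this and the next lists, 9.4% of all probes were higher and 8.8% lower than in BT549. Against Hs578T the shares were 9.68% and 10.6%. DSP, the desmoplakin that binds the filaments, had means of 2247 in SUM149PT, 2.30 in BT549 and 17.9 in Hs578T. Hemidesmosomes anchor the filaments to the basement membrane, and 3 of 10 probes of hemidesmosomes and their laminin were higher than in BT549, while 4 were higher and 2 lower than in Hs578T. ITGB4, the integrin of hemidesmosomes, had a mean of 128 in SUM149PT and 0 in both other lines. Of the epithelial transcription factors, 6 of 11 probes were higher and 1 was lower than in BT549, with OVOL2 at 1186 against 0.838. KLF4 was the one that was lower, at 0 against 47.0. Of the cornification genes, 3 probes were tested, and 1 was higher than in BT549, while 2 were higher and 1 lower than in Hs578T. The lower one was SBSN, with a mean of 18.3 in SUM149PT and 2046 in Hs578T (limma, adjusted p = 1.29e-05). Markers of leukocytes and endothelium, which should be absent from these cultures, had 1 tested probe of 11, PECAM1_14079, with a mean of 77.6 in SUM149PT and 0.701 in BT549, while the other PECAM1 probe had 0 reads in these groups. ESR1, a receptor by whose absence TNBC is defined, had a mean of 39.6 in SUM149PT and 0 in BT549 by probe ESR1_12234 and 0 reads by its other probe. In Hs578T the means were 18.5 for PECAM1_14079 and 11.2 for ESR1_12234, and neither was called between SUM149PT and Hs578T. The part of these genes in the keratin values was not tested.

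Of the other keratins, 4 of 5 tested probes were higher in SUM149PT than in BT549 and 4 of 5 higher than in Hs578T, beside 9.4% and 9.68% of all probes. The higher ones included KRT86 (mean 6321 against 0.210 in BT549) and KRT83 (1153 against 1.66). KRT80, a type II keratin, and KRT34, a type I hair keratin, were the other keratins that differed between BT549 and Hs578T in the siCtrl libraries. The KRT80 means in the siCtrl libraries were 2230 ± 1036 (SD, n = 3) in SUM149PT, 562 ± 66.8 in BT549 and 18.1 ± 9.17 in Hs578T, and it was higher in BT549 than in Hs578T by 4.98 (SE 0.47, adjusted p = 9.32e-05). KRT34 had siCtrl means of 1.91 in SUM149PT, 0 in BT549 and 58.6 in Hs578T. In these libraries it was lower than in Hs578T in both other lines (limma, adjusted p = 0.00168 and 0.000847). After siASAP1 its mean in Hs578T was 22.5. By the limits of the study it was called lower there, at -1.57 (SE 0.64, limma, unadjusted p = 0.0355, adjusted p = 0.923), as were 1.44% of all probes.

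The effect of siASAP1 on the keratins was tested in each line with the limits of the study, an unadjusted p under 0.05 with an absolute Log2 FC over 1. In SUM149PT, 12 of 13 probes from 9 genes were tested. Of these, 2 were called higher and 0 lower, beside 5.27% of all probes called higher and 4.29% called lower. The called members were KRT17 and KRT6A. After adjustment over all probes 0 members and 0 of all 10078 probes had an adjusted p under 0.05, while 10.2% of all probes had an unadjusted p under 0.05. The median Log2 FC of the 12 probes was 0.92, beside 0.09 over all probes. This median depends on the libraries numbered 2. Without both, KRT5 (-0.15), KRT7_10561 (-1.18), KRT19_10816 (-0.49) and KRT81_13695 (-1.75) turned from positive to negative, and no member turned the other way.

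KRT17 rose from 1365 ± 659 (SD, n = 3) to 3818 ± 1568, a Log2 FC of 1.54 (SE 0.52, 95% CI 0.34 to 2.75, unadjusted p = 0.0184, adjusted p = 0.41). KRT6A rose from 2208 ± 1342 to 7353 ± 3668, a Log2 FC of 1.87 (SE 0.65, 95% CI 0.38 to 3.37, unadjusted p = 0.0203, adjusted p = 0.418). For both genes all 3 siASAP1 libraries lay above all 3 siCtrl libraries. For KRT8 all 3 siASAP1 libraries lay below, at -0.51 (SE 0.35, adjusted p = 0.665). The groups did not overlap for these 3 of the 12 probes, as for 17.3% of all probes.

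Leaving out siASAP1 library 2 or 3 ended both calls. Without SUM149PT siASAP1 2, the Log2 FC was 1.24 for KRT17 and 1.5 for KRT6A, and neither was called (adjusted p = 0.445 and 0.451). Neither was called without siASAP1 3, where the Log2 FC was 1.56 (adjusted p = 0.834) and 1.85 (adjusted p = 0.834). Without siCtrl 2 alone both stayed called, KRT17 at 1.08 and KRT6A at 1.20 (limma, unadjusted p = 0.0257 and 0.0259, both adjusted p = 0.149). With both libraries numbered 2 left out, KRT17 stood at 0.77 (SE 0.24, adjusted p = 0.0383) and KRT6A at 0.83 (SE 0.29, adjusted p = 0.052), under the fold limit of the study. In that fit 2140 of 9871 probes were higher and 1594 lower at an adjusted p under 0.05, so such values were common. Both libraries were left out for their likeness to the other group over all probes, and such a choice by itself favors small p-values. With all 6 libraries the count was 0 of 10078. Both genes thus had a positive Log2 FC with and without those libraries, and a larger one with them.

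The remaining basal and inducible members were not called. KRT6B had a Log2 FC of 2.61 (95% CI -0.76 to 5.98), which became 0.02 (-0.87 to 0.91) without both libraries numbered 2. KRT5 had 1.91 (-1.45 to 5.27), which became -0.15 (-1.80 to 1.5). In the library labelled siCtrl 2, KRT5 had 0 reads and KRT6B had 3. KRT6B was called without siCtrl 3, at 3.69 (unadjusted p = 0.0436, adjusted p = 0.843).

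The luminal members were not called either with all 6 libraries. KRT18 had a Log2 FC of -0.19 (95% CI -2.08 to 1.70), KRT19_3690 of -0.92 (-2.46 to 0.62) and KRT7_10561 of 0.24 (-1.62 to 2.10). KRT7_3703 had 1.62 (-0.30 to 3.53) and was called without siCtrl 3, at 2.18 (adjusted p = 0.843). KRT19_10816 had 0.30 (-1.64 to 2.24). With both libraries numbered 2 left out, 3 luminal probes were lower by the limits of the study. So were 16.9% of all probes, in a fit whose choice of libraries itself favors small p-values. The luminal probes were KRT18 at -1.52 (SE 0.28, adjusted p = 0.00394), KRT19_3690 at -1.79 (SE 0.48, adjusted p = 0.02) and KRT7_10561 at -1.18 (SE 0.25, adjusted p = 0.00693). KRT8 stood at -0.74 (SE 0.24, adjusted p = 0.0429), under the fold limit, and KRT7_3703 at 0.22 (SE 0.31). Without the library labelled siCtrl 2 alone, KRT18 was called at -1.16 and KRT19_3690 at -1.47 (both adjusted p = 0.16).

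The probes of KRT81 went apart. KRT81_13695 had a Log2 FC of 0.04 (95% CI -2.20 to 2.28) and KRT81_3705 of 2.64 (-1.49 to 6.76). With both libraries numbered 2 left out, KRT81_13695 was called lower at -1.75 (SE 0.25, adjusted p = 0.00134). KRT81_3705 was called higher at 4.88 (SE 1.38, adjusted p = 0.0249), where its siCtrl libraries had 0 reads, so that the size depends on the added count of 1. In that fit 1 member was called higher and 4 lower, beside 23.5% of 9871 probes called higher and 16.9% called lower. In these 4 libraries, 2 of siASAP1 and 2 of siCtrl, KRT17 and KRT6A thus had positive values while KRT18, KRT19_3690, KRT7_10561 and KRT81_13695 were lower.

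**Figure D3:**
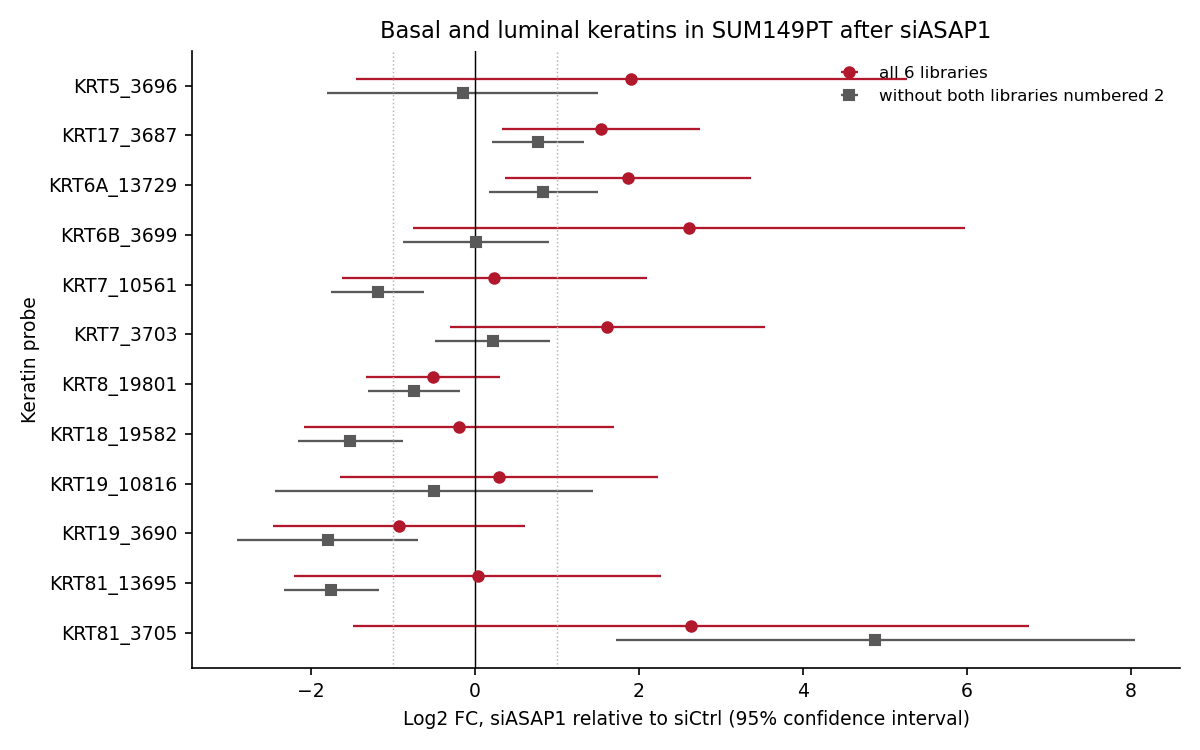
Log2 FC of the 12 tested member probes in SUM149PT, siASAP1 relative to siCtrl. Circles are the fit of all 6 libraries, squares the fit without both libraries numbered 2, bars are 95% confidence intervals and dotted lines mark the fold limit of 1. KRT17 and KRT6A stay above 0 in both fits, while KRT7_10561 and KRT81_13695 move from 0.24 and 0.04 to -1.18 and -1.75.

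Library by library, the libraries numbered 2 stood at the ends of the range for most of the 12 tested probes. The library labelled siCtrl 2 was the lowest of the 6 for 8 of the 12 probes, and the library labelled siASAP1 2 was the highest for 8 of them. KRT6B deviated by 2.91 in siASAP1 2 and by -4.90 in siCtrl 2 from its mean over the 6 libraries on the log2 scale, and KRT17 by 1.38 and -1.71. KRT8 was the steadiest, between -0.43 and 0.70.

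**Figure D4:**
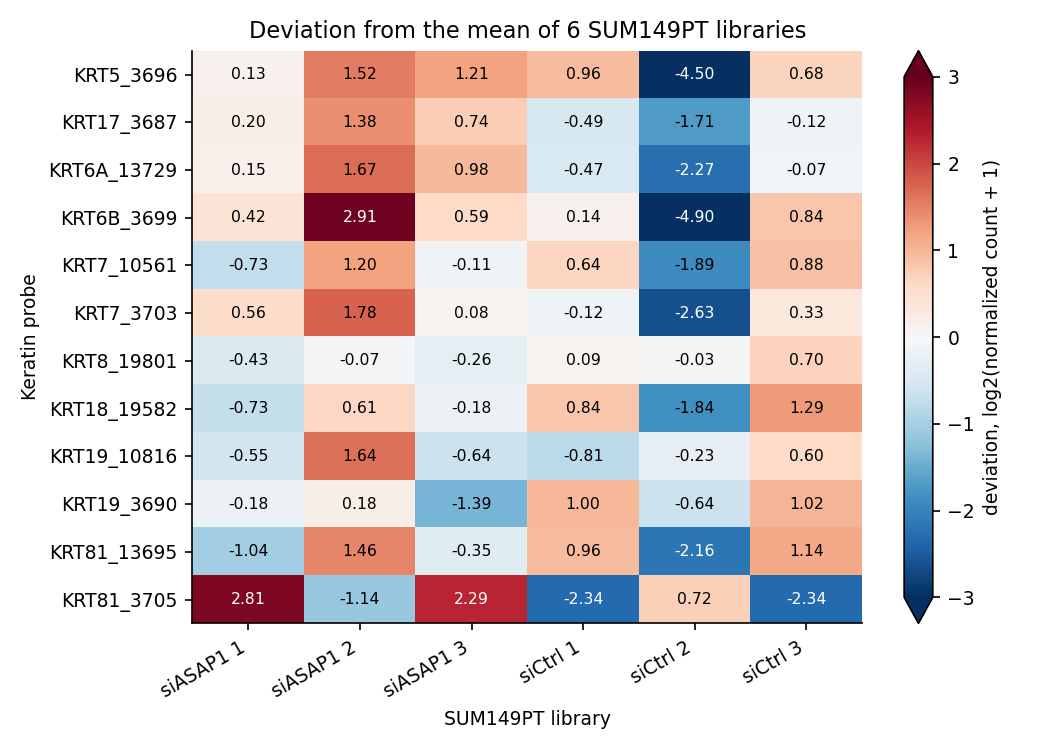
Deviation of each tested member probe from its mean over the 6 SUM149PT libraries, on the scale log2(normalized count + 1), with red above and blue below the mean and the value printed in each cell. The columns siASAP1 2 and siCtrl 2 hold the most extreme values, up to 2.91 and down to -4.90 for KRT6B, and KRT81_3705 runs against the other probes.

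Within SUM149PT, over the deviations from the group means in 6 libraries, KRT17 and KRT6A had a Pearson r of 0.996 and KRT7_10561 and KRT81_13695 of 0.999. KRT18 had r values of 0.968 with KRT5 and 0.990 with KRT6B, members of other layers. KRT8 had lower values, from 0.506 with KRT19_3690 to 0.822 with KRT17. KRT19_10816 had 0.159 with KRT5, 0.396 with KRT18 and 0.446 with the other probe of its gene. These points share their cell line, and the libraries numbered 2 are the far points, so the values are a description of 6 libraries. Over all 18 libraries KRT17 and KRT6A had r = 0.998 with each other. Among probes of genes that are not members, B4GALNT3 was closest to KRT6A (r = 0.998) and to KRT17 (0.998). SERPINB3 came next for both (0.998 for KRT6A and 0.996 for KRT17). For KRT8 the closest probe was that of ANXA3 (0.969), and for KRT19_3690 that of EPN3 (0.996). Such values mainly follow the gap between SUM149PT and the other lines. By the deviations from the 6 group means, KRT6A was closest to RAB25 (0.992) and KRT17 to TUBB6 (0.886).

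In BT549 and Hs578T only KRT8 and KRT18 passed the filter, and neither was called. In BT549, KRT8 was 177, 84.0 and 274 after siASAP1 and 47.4, 315 and 181 after siCtrl, a Log2 FC of 0.19 (95% CI -1.36 to 1.74). KRT18 in BT549 was 8.0, 14.2 and 33.8 after siASAP1 and 8.73, 5.03 and 6.31 after siCtrl, a Log2 FC of 1.16 (-0.93 to 3.24). The groups overlapped for both genes, where 13.9% of all probes did not overlap, and 0 of the 2 probes were called beside 3.28% of all probes called higher and 3.69% lower. By limma with an unadjusted p under 0.05 alone the count was 0 as well, beside 7.8% of all probes. Without BT549 siASAP1 3, KRT8 stood at -0.19, and without siCtrl 1 at -0.58.

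In Hs578T, KRT8 was 128, 80.9 and 245 after siASAP1 and 132, 106 and 377 after siCtrl, a Log2 FC of -0.35 (95% CI -1.59 to 0.89). KRT18 was 104, 34.1 and 81.0 after siASAP1 and 54.8, 8.16 and 80.8 after siCtrl, a Log2 FC of 0.95 (-0.85 to 2.76). The groups overlapped again, where 12.1% of all probes did not, and 0 of the 2 probes were called beside 1.34% of all probes higher and 1.44% lower, with 0 at an unadjusted p under 0.05 beside 5.28% of all probes. The intervals in both lines include changes past the fold limit of 1 in at least one direction, so that a change of that size was not excluded. Without siASAP1 2 or siCtrl 3, KRT8 in Hs578T stood at 0.03 and 0.21, and without siCtrl 2 KRT18 stood at -0.01.

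Over the 3 lines together, with the cell line as a covariate, 0 of 11 tested member probes were called, beside 0.678% of all probes higher and 1.06% lower, with 0 members at an unadjusted p under 0.05 beside 15.8% of all probes. The smallest member p was that of KRT6A, at 0.62 (SE 0.40, adjusted p = 0.481). The interaction of cell line and siASAP1 called 0 of 11 members, beside 0.00955% of all probes, and had 0 members at an unadjusted p under 0.05 beside 6.22%. KRT6A had the smallest p there as well, 0.0731 before adjustment and 0.851 after it (limma). In BT549 and Hs578T the member probes other than KRT8 and KRT18 were at or near 0 reads, so these tests say little about them. KRT8 stood at -0.22 over the lines (SE 0.35, adjusted p = 0.823) and KRT18 at 0.64 (SE 0.49, adjusted p = 0.577), and their interaction had adjusted p = 0.983 and 0.972 by limma.

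Beside the members in SUM149PT, 1 of 6 tested probes of the other keratins was called after siASAP1, beside 5.27% of all probes higher and 4.29% lower. It was KRT16, a type I keratin that pairs with KRT6A and KRT6B in stressed epithelium, with 51.6, 138 and 23.7 after siASAP1 and 0, 3.64 and 12.8 after siCtrl. Its Log2 FC was 3.82 (SE 1.23, unadjusted p = 0.0147, adjusted p = 0.391). KRT86 had 0.33 (SE 1.00) and KRT83 0.22 (SE 1.05), and neither was called. Of the probes of hemidesmosomes and their laminin 4 of 10 were called higher, among them LAMA3 at 3.47 (SE 0.40, adjusted p = 0.0668). Of the desmosome probes 1 of 9 was higher, DSG3 at 3.73. Of the cornification probes 2 of 6 were higher, with S100A9 at 4.58 and PPL, a periplakin that links keratin filaments to the cornified envelope, at 1.87. Among epithelial markers 3 of 12 were higher, among them CDH1 at 1.24, and among epithelial transcription factors 2 of 13, EHF at 1.92 and GRHL1 at 2.58. Of the other intermediate filaments 1 of 5 probes was lower, VIM_18185 at -1.48 (SE 0.36, adjusted p = 0.334). Among the mesenchymal markers 4 of 11 probes were higher, among them FN1_27231 at 2.35, and VIM_18185 was lower. The adjusted p of the list genes named here without one ran from 0.169 to 0.47 (limma). Without both libraries numbered 2, where 23.5% of all probes were called higher and 16.9% lower, KRT16 stood at 3.28 (SE 1.44, adjusted p = 0.108) and was not called, nor were PPL at 0.84 and GRHL1 at 1.81. KRT83 (-1.68) and KRT86 (-1.45) were then called lower. LAMA3 (3.13), DSG3 (4.70), S100A9 (4.23), CDH1 (1.26), EHF (1.59) and FN1_27231 (2.11) stayed called higher and VIM_18185 (-1.75) lower. In that fit 2 of 9 desmosome probes were higher and 1 lower, PERP at -1.07. Of the hemidesmosome probes 5 of 10 were higher and 1 lower, DST_17875 at -1.16. Of the epithelial transcription factors 2 of 12 were higher and 2 lower, FOXA1 (-1.27) and SOX9 (-1.05). Of the epithelial markers 4 of 12 were higher and 0 lower, and of the mesenchymal markers 3 of 11 higher and 2 lower.

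KRT15, a type I keratin of basal cells that is not among the members, was the keratin called over the 3 lines. It was 8.89, 34.9 and 17.3 after siASAP1 and 0 in each siCtrl library of BT549, and 41.9, 50.9 and 36.3 after siASAP1 and 0, 14.7 and 0 after siCtrl in Hs578T. In SUM149PT it was 52.9, 52.6 and 72.3 after siASAP1 and 57.2, 31.0 and 25.6 after siCtrl. Over the lines its Log2 FC was 3.02 (SE 0.61, adjusted p = 0.014), and within them it was called in BT549 (4.22, adjusted p = 0.585) and Hs578T (4.12, adjusted p = 0.915) and not in SUM149PT (0.70). The fold in BT549 depends on the added count of 1, as its siCtrl libraries had 0 reads. These values rest on few reads, from 10 to 88 in each siASAP1 library. KRT15 was thus read after siASAP1 in BT549 and Hs578T, lines where KRT5, KRT17 and KRT6A stayed at or near 0.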

How the data were processed

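The authors counted TempO-Seq reads per probe, divided them by DESeq2 size factors, added 1 and deposited log2 values for 18 libraries. The labels list bcl2fastq and Bowtie without versions, and a genome build for the reads is not given in the sources used here. Of the deposited values, 100% were whole multiples of 1 step per library (tolerance 0.01), so reads were recovered (4.63 to 12.5 M per library). Groups and replicates were taken from the labels, and the study describes biological triplicates. Probes whose normalized counts averaged under 10 in the libraries of a fit did not enter it. The log2 values were fitted with limma 3.58.1 (lmFit, then eBayes with a trend; R 4.3.3), checked on simulated data, with Benjamini-Hochberg adjustment over all tested probes. The deposited unit is log2, so the planned edgeR and DESeq2 tests were not run. Intervals are 95% and cover replicate spread, or counting error where so named. The members and gene lists were chosen with earlier results of these data known. Named genes are all members, up to 3 called genes of a list in each direction by p, and the 3 probes most like a member. Coding sequences came from GENCODE 29, aligned with Biopython 1.88, and figures were drawn with matplotlib 3.10.9 in Python 3.11.15.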

Additional observations from a re-analysis of the deposited data

How the results depend on the processing

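Under TMM scaling, scaling by library totals, no filter, a minimum mean of 50, pseudocounts of 0.1 and 10, and voom weights (added after seeing the data), KRT17 and KRT6A stayed called in SUM149PT. The count of members called higher there was 0 with the replicate number as a block and 0 by the adjusted p. It was 4 with all 18 libraries in a single fit, which added KRT6B and KRT81_3705 (limma, adjusted p = 0.236 and 0.212). Without both libraries numbered 2 (also added later) it was 1 higher and 4 lower. Leaving out each library gave 0 to 4 higher and 0 to 2 lower. Apart from the adjusted p and the fit without both libraries numbered 2, the share of all probes called was not computed for the settings of this paragraph. These counts therefore have no share beside them. Between BT549 and Hs578T after siASAP1, KRT18 was called lower, the count being 1, under TMM scaling and with a minimum mean of 50, and leave-one-out gave 0 to 1 lower and 0 to 1 higher. Without the filter 1 member, KRT14, was called lower in Hs578T, at -2.41 (adjusted p = 0.906), from 25 reads in 2 siCtrl libraries.

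In SUM149PT the sign turned for KRT81_13695 under TMM (-0.0202), for KRT18 under library totals (0.0230), and without both libraries numbered 2 for KRT7_10561 (-1.18), KRT19_10816 (-0.49), KRT81_13695 (-1.75) and KRT5 (-0.15). The sum of both KRT19 probes stood at -0.65, beside 0.30 for KRT19_10816 and -0.92 for KRT19_3690, the probe with more reads. Why the other signs turned was not tested. Leave-one-out ranges that crossed 0 in SUM149PT were -1.16 to 0.40 for KRT18, -0.45 to 0.69 for KRT19_10816, -0.64 to 0.74 for KRT7_10561 and -1.03 to 0.62 for KRT81_13695. KRT8 ranged from -0.58 to 0.78 in BT549, from -0.77 to 0.21 in Hs578T, and between BT549 and Hs578T from -0.90 to 0.45 after siCtrl and from -0.16 to 0.68 after siASAP1. KRT18 in Hs578T ranged from -0.00867 to 1.57. Between SUM149PT and the other lines no setting turned a sign, and voom weights ended the calls of KRT6B after siCtrl (adjusted p = 0.0944 and 0.0551).

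Replicate numbers showed no pairing of the samples in BT549 and SUM149PT, but these values could not settle the question. The deviations of same-numbered libraries correlated at -0.19, -0.39 and 0.14 in BT549 and at -0.33, -0.66 and -0.35 in SUM149PT. In Hs578T they correlated at 0.0998, 0.42 and 0.41, and libraries of different number at -0.40 to 0.14. Pairing by number thus remains possible in Hs578T and was not settled in the other lines. With the block, KRT17 had an unadjusted p of 0.0624 and KRT6A of 0.053 (limma). The edgeR and DESeq2 alternatives were not run. The values of KRT5, KRT14, KRT19_10816 and KRT81_3705 rested on few reads.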
